A study of Mus musculus with 9 samples.

Results

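The globin and erythroid genes described here were followed across 9 RNA-Seq libraries of mouse splenic monocytes. They were listed by symbol as Hba-a1, Hba-a2, Hbb-bs, Hbb-bt, Alas2, Slc4a1, Car2, Klf1 and 1 further symbol, which was not analysed here, so that 8 of the 9 listed genes had a row among the 46072 genes of each deposited table. Each of the 8 symbols had 1 row, so no choice by the highest mean FPKM was needed. FPKM counts fragments after scaling both to the length of a transcript and to the mapped total of a library, and levels of different genes are compared only on that scale. The list was selected on results of these same libraries, namely the levels in the 3 groups and the 3 contrasts between them, so the member values below describe the selection and are not independent support for it.

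All mice were female C57BL/6, aged 8 to 10 weeks per the study's methods, with 3 mice in each group. Con mice were gavaged with water for the same 6 days and had the same rest as Van mice. Van mice received vancomycin, an antibiotic that is little absorbed from the gut, as 1 mg gavages adding up to 2 mg a day for 6 days, followed by rest without antibiotic that the labels put at 6 to 8 days and the study's account of the RNA-Seq mice at 8. VanLip mice went through the same vancomycin gavage and rest and also received L654, a serine-glycine lipid of Bacteroidota that is a TLR2 ligand and was purified from Porphyromonas gingivalis, by retro-orbital injection on days 7, 9 and 11. Monocytes were purified by magnetic negative selection, and the study's methods give their purity as short of complete. Among the surface markers by which those methods describe these cells none is specific to red cells. Because RNA was taken from the bulk of the purified cells, fewer cells of a type and less RNA per cell cannot be told apart.

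Red cells carry oxygen on hemoglobin, a tetramer of alpha and beta globin chains that each hold a heme group. During red cell formation the nuclear factor encoded by Klf1, which binds CACCC motifs, and GATA1, which binds GATA motifs, raise the transcription of globin genes and of Alas2, the first and rate-limiting enzyme of heme synthesis in this lineage. In the adult mouse the spleen is itself a site of red cell formation, and the red pulp also holds many circulating red cells and the macrophages that clear old ones.

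Depth and the commonest low count differed between the groups. The 6 libraries of the Con and Van groups held 43070361 to 61383806 expected counts, whereas the VanLip libraries held 170503470 to 184720704. The commonest low count was 1.33 in each library without L654 and 2.00 in each VanLip library. Divided by this count, the totals came to 32383730 to 46153238 in Con and Van and to 85251735 to 92360352 in VanLip. The commonest low counts stand to each other as reads of 150 and 100 bases would, whereas the methods give 100-base reads without distinction, and the read length of the VanLip libraries could not be settled here. Values above 0 were found for 19991 to 20508 genes in Con and Van and for 22117 to 22770 in VanLip. In both contrasts with VanLip the group and this library difference therefore cannot be told apart. All 13 monocyte markers examined, among them Ly6c2, Ccr2, Csf1r and Lyz2, were detected, and their summed level was 11430 to 12030 FPKM in Con, 10370 to 11830 in Van and 11570 to 13020 in VanLip, of which Lyz2 alone gave 6428 to 9154.

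The alpha globin genes Hba-a1 and Hba-a2 and the beta globin genes Hbb-bs and Hbb-bt are each a pair of near-identical copies, and this similarity bears on how far a copy's value can be read alone. In GRCm38 Hba-a1 lies at chr11:32283511-32284465 and Hba-a2 at chr11:32296489-32297298, both on the plus strand, and Hbb-bs lies at chr7:103826534-103828096 and Hbb-bt at chr7:103812524-103813996, both on the minus strand. In the GENCODE M21 transcripts the coding parts of Hba-a1 and Hba-a2 were 429 bases long and had 428 bases in common, with the change C381T from Hba-a1 to Hba-a2, where positions count from 1 at the A of the start codon. The coding parts of Hbb-bs and Hbb-bt were 444 bases long and had 443 bases in common, with the change C417T from Hbb-bs to Hbb-bt. Both changes fall on the third base of a codon. The stretches of 51 coding bases around these positions are shown because they hold the only coding base by which reads of a pair can be assigned, and the capital marks the base that differs.
Hba-a1: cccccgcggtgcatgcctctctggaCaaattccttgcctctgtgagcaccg
Hba-a2: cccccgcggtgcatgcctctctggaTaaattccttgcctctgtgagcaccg
Hbb-bs: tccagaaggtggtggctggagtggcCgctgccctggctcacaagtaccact
Hbb-bt: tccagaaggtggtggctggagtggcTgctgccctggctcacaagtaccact
Of all windows of 100 bases in the Hba-a1 transcript 56.5% also occurred in that of Hba-a2, and 62.6% of those in Hbb-bs occurred in Hbb-bt. In the reverse direction 74.5% of the windows in Hba-a2 occurred in Hba-a1 and 54.8% of those in Hbb-bt in Hbb-bs. With windows of 150 bases the 4 shares were 48.4%, 58.7%, 65.7% and 50.7% in the same order. The share of a copy in its pair is thus partly set by how the authors' tool divided shared reads. The summed counts of a pair do not depend on that division, but its summed FPKM does to some extent, since the transcripts are 699 and 554 bases long in the alpha pair and 628 and 703 in the beta pair.

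The sequences upstream of the RefSeq start sites of the members are shown because these genes varied together across libraries and because Klf1 is itself a member. RefSeq start sites on GRCm38.p6 were matched for 6 of the 8 genes, and Slc4a1 and Car2 had no entry. The 130 bases before the start site lie at chr11:32283542-32283671 on the plus strand for Hba-a1, chr11:32296362-32296491 on the plus strand for Hba-a2, chr7:103827929-103828058 on the minus strand for Hbb-bs and chr7:103813924-103814053 on the minus strand for Hbb-bt. Those of the other genes lie at chrX:150547287-150547416 on the plus strand for Alas2 and chr8:84901852-84901981 on the plus strand for Klf1. These start sites differ from the ends of the gene spans given in the text, so that the windows of Hba-a1 and Hbb-bs lie wholly inside those spans and the other 4 partly. Capitals mark, on either strand, CACCC, the core of sites bound by KLF1, and GATAA, the core of GATA factor sites. They also mark CCAAT of the CCAAT box and the letters TATAA of a TATA box.
Hba-a1: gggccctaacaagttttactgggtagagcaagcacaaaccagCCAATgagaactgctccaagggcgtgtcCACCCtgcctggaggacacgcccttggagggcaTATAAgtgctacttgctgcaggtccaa
Hba-a2: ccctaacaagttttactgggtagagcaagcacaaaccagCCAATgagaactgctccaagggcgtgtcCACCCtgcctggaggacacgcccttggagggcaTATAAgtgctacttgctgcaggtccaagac
Hbb-bs: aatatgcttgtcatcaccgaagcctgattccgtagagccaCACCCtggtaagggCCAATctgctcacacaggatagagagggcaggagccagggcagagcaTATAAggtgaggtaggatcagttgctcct
Hbb-bt: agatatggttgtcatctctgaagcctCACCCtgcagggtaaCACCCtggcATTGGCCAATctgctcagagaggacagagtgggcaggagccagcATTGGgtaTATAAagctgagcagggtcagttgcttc
Alas2: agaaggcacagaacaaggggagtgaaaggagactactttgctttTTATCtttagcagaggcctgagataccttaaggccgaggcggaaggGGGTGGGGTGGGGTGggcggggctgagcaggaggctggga
Klf1: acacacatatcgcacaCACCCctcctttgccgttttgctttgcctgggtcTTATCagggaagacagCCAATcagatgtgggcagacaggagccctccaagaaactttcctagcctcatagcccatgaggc
CACCC was found in each of the 6 sequences, and 33.7% of 32851 RefSeq promoters held it in a window of this length. The run of capitals in Alas2 that holds GGGTG is 3 adjacent matches to CACCC on the other strand. GATAA, held by 11.4% of promoters, was found once in Alas2 and once in Klf1 and in none of the 4 globin sequences. CCAAT, held by 22.4%, was found in the 4 globins and in Klf1, with 3 matches in Hbb-bt. TATAA, held by 12.7%, was found in the 4 globins and in neither Alas2 nor Klf1. The upstream windows of Hba-a1 and Hba-a2 shared an unbroken run of 127 of 130 bases, whereas the longest run shared by Hbb-bs and Hbb-bt was 14 bases. A match is a run of letters and not evidence that a factor binds there.

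The alpha globins were the highest of the members in every library. Hba-a1 stood at 41.4, 63.2 and 29.6 FPKM in Con replicates 1 to 3, at 134, 227 and 100.0 FPKM in Van replicates 1 to 3 and at 80.3, 349.7 and 319 FPKM in VanLip replicates 1 to 3. In the same order Hba-a2 stood at 42.7, 61.8 and 28.4 FPKM in Con, at 143, 230.2 and 103 FPKM in Van and at 83.0, 362 and 319 FPKM in VanLip. For both genes each Van and each VanLip library lay above each Con library, VanLip replicate 1 lay below all 3 Van libraries, and the other 2 VanLip libraries were the highest of all. The mean level of Hba-a1 (± SD, n = 3) was 44.7 ± 17.1 FPKM for Con, 154 ± 65.5 for Van and 249.7 ± 147 for VanLip. Ordered by FPKM among all genes, Hba-a1 ranked between 967 and 2321 in Con, between 284 and 600 in Van and between 183 and 761 in VanLip.

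Hbb-bs placed the 9 libraries in the order of the alpha globins, and in Hbb-bt only VanLip replicates 2 and 3 changed places. Hbb-bs stood at 35.1, 50.2 and 26.6 FPKM in Con, at 129, 199 and 86.9 FPKM in Van and at 72.7, 283 and 275 FPKM in VanLip. Hbb-bt stood at 19.1, 26.3 and 14.4 FPKM in Con, at 72.3, 112 and 51.1 FPKM in Van and at 40.5, 161 and 163 FPKM in VanLip. Con and Van did not overlap for either gene, nor did Con and VanLip, while the Van libraries lay inside the span of the VanLip libraries. The plot of member levels by library shows this spread.

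**Figure D1:**
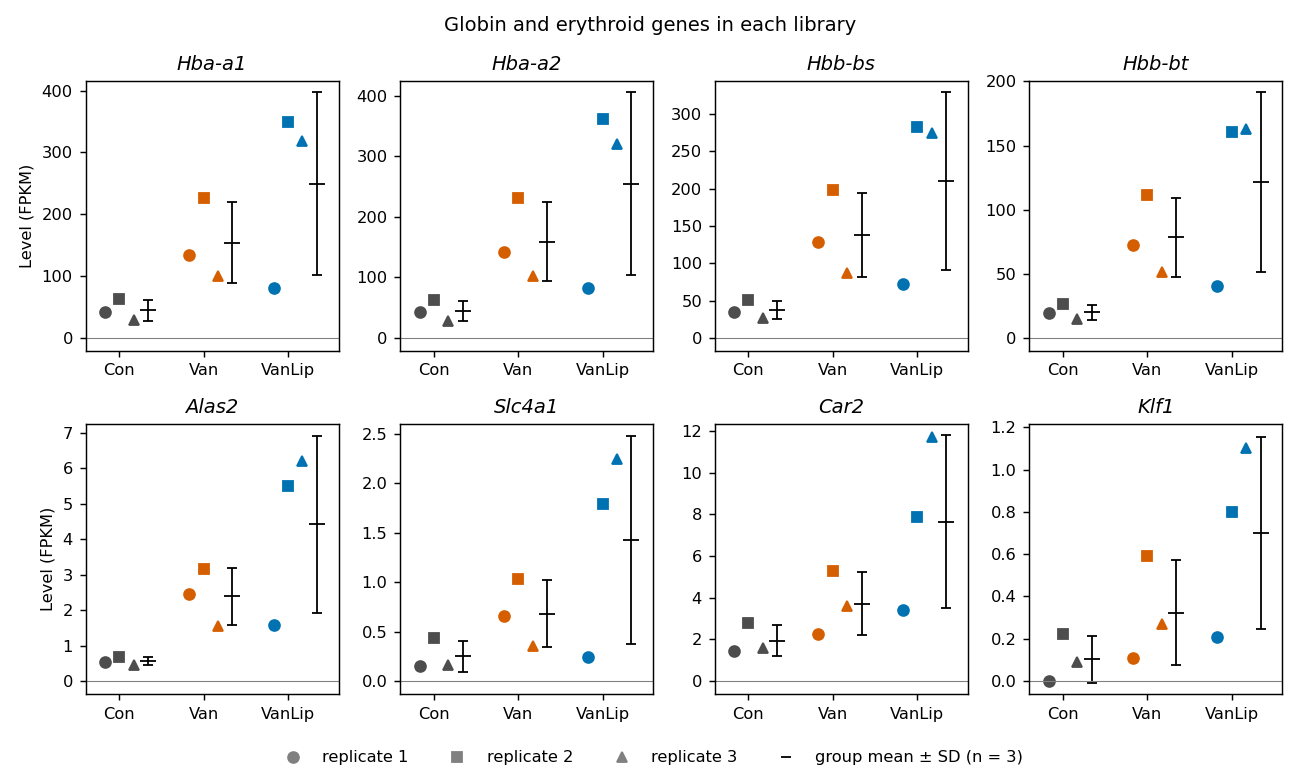
Level in FPKM (vertical axis, linear, a scale of its own in each panel) of the 8 genes in each library of the Con, Van and VanLip groups, with 1 symbol shape for each replicate number and the mean ± SD beside each group. VanLip replicate 1 is the lowest VanLip library in all 8 panels, for Hba-a1 80.3 FPKM beside 349.7 and 319.

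Alas2 encodes the erythroid form of 5-aminolevulinate synthase, on chromosome X at chrX:150547375-150570638. Its level was 0.536, 0.686 and 0.461 FPKM in Con, 2.45, 3.15 and 1.55 FPKM in Van and 1.57, 5.49 and 6.20 FPKM in VanLip. As for the globins, no Con library reached the level of any Van or VanLip library. Relative to the sum of the 4 globins on the FPKM scale, Alas2 amounted to 3.41 to 4.66 per 1000 in Con, 4.11 to 5.12 in Van and 4.75 to 5.76 in VanLip, so that the ratio varied far less than either level. Alas1, the form of the enzyme used by all cells, differed from Con by a log2 fold change of -0.02 in Van and in VanLip, each with an SE of 0.11, and was not called.

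Slc4a1, at chr11:102348824-102366203, encodes band 3, the anion exchanger of the red cell membrane. Its level was 0.154, 0.430 and 0.165 FPKM in Con, 0.654, 1.03 and 0.353 FPKM in Van and 0.238, 1.79 and 2.24 FPKM in VanLip. Here the groups overlapped, since Con replicate 2 lay above Van replicate 3 and above VanLip replicate 1. Klf1, at chr8:84901928-84905291, was the lowest member, at 0, 0.221 and 0.0899 FPKM in Con, 0.107, 0.593 and 0.271 FPKM in Van and 0.206, 0.799 and 1.10 FPKM in VanLip. Con replicate 2 again lay above 1 Van and 1 VanLip library. The value of 0 in Con replicate 1 and the expected counts of 24.5 and 7.01 in the other 2 Con libraries show how few reads stood behind Klf1 in this group.

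Car2, at chr3:14886273-14900770, encodes a carbonic anhydrase that is abundant in red cells and is made in other cell types too. Its level was 1.47, 2.78 and 1.59 FPKM in Con, 2.27, 5.30 and 3.59 FPKM in Van and 3.40, 7.86 and 11.7 FPKM in VanLip. All VanLip libraries lay above all Con libraries, while Con replicate 2 lay above Van replicate 1. Relative to the sum of the 4 globins, Car2 amounted to 10.6 to 16.0 per 1000 in Con, 4.74 to 10.5 in Van and 6.80 to 12.3 in VanLip, so the highest Van library lay just below the lowest Con library in this ratio. Whether Car2 differed less than the globins between Van and Con was not tested.

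The ratio of alpha to beta globin was nearly constant. The FPKM of Hba-a1 and Hba-a2 summed to 58.0 to 125 in Con, 203 to 457 in Van and 163 to 712 in VanLip, and that of Hbb-bs and Hbb-bt to 41.0 to 76.5, 138 to 311 and 113 to 444. The alpha to beta ratio lay between 1.37 and 1.63 in all 9 libraries, with means (± SD, n = 3) of 1.53 ± 0.112 for Con, 1.44 ± 0.0559 for Van and 1.50 ± 0.0887 for VanLip, and the groups overlapped. Hba-a1 made up 48.5% to 51.1% of the alpha pair with the groups overlapping. Hbb-bs made up 64.7% to 65.6% of the beta pair in Con, 63.0% to 64.1% in Van and 62.7% to 64.2% in VanLip, so that each Con library lay above every Van and VanLip library, a difference that was not tested. Over all libraries the 4 globins together took 0.00791% to 0.0933% of the total count, so even the highest library held few globin reads in relation to its depth. The ratios are shown in the plot of alpha against beta globin.

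**Figure D2:**
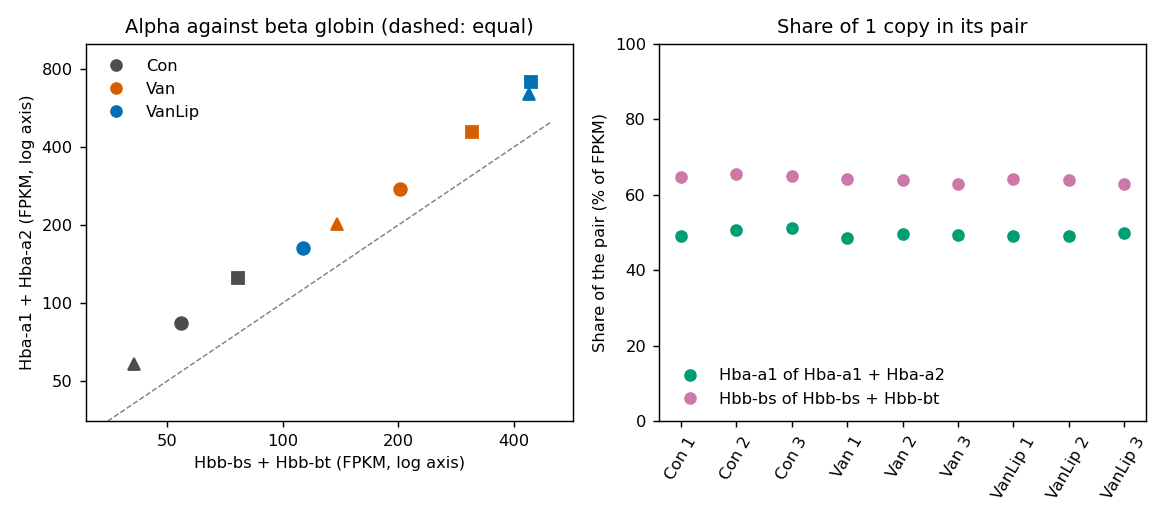
Left, summed FPKM of Hba-a1 and Hba-a2 (vertical, log axis) against that of Hbb-bs and Hbb-bt (horizontal, log axis) in 9 libraries coloured by group, with shapes for replicate numbers 1 (circle), 2 (square) and 3 (triangle) and a dashed line of equal levels. Right, percent of each pair's FPKM given to Hba-a1 and to Hbb-bs in each library, where Hba-a1 stays between 48.5% and 51.1% and Hbb-bs between 62.7% and 65.6%, with the 3 Con libraries highest.

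The members varied together, also between mice of the same group. Over the 9 libraries the correlation of log2(FPKM + 1) between members was between 0.866 and 0.999 for the 28 pairs, with the 6 globin pairs at 0.997 to 0.999. These points share 3 treatments, and VanLip differs in depth. After subtraction of each group's mean the 28 pairs still had correlations of 0.813 to 0.999. For Hba-a1 the deviations were widest in VanLip, where replicate 1 stood at 80.3 FPKM beside 349.7 and 319. How far these correlations rest on that library was not tested. Car2 and Klf1 correlated more closely with each other, at 0.986, than Klf1 did with any globin, where the range was 0.866 to 0.884.

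The first contrast asks which of these genes differed after vancomycin and rest. Alas2 and the 4 globins were higher in Van than in Con by DESeq2's Wald test at an adjusted p of 0.05 or under, while Slc4a1, Car2 and Klf1 were not called. The log2 fold change was 1.76 ± 0.554 for Hba-a1 (SE, adjusted p = 0.0384), 1.82 ± 0.548 for Hba-a2 (adjusted p = 0.0271), 1.88 ± 0.518 for Hbb-bs (adjusted p = 0.0122) and 1.96 ± 0.574 for Hbb-bt (adjusted p = 0.0214). Alas2 had the largest difference, 2.09 ± 0.552 (adjusted p = 0.00793), which is 4.25-fold. Slc4a1 had a log2 fold change of 1.42 (95% interval -0.24 to 3.08), Car2 of 0.92 (-0.12 to 1.96) and Klf1 of 1.62 (-0.20 to 3.44), with adjusted p-values of 0.458, 0.433 and 0.429.

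In numbers, 5 of the 8 members were called higher and none lower, where 2.27% of the 18516 genes with an adjusted p were called higher and 2.06% lower. In normalized counts the 3 Van libraries lay above the 3 Con libraries for 5 members, against 10.4% of all genes tested. The median log2 fold change was 1.79 over the members and 0.0 over all genes. Since the list was selected on this contrast, nothing is read from these counts. With the copies of each pair summed before the fit, the alpha pair differed by 1.79 ± 0.551 (adjusted p = 0.0331) and the beta pair by 1.90 ± 0.516 (adjusted p = 0.0102).

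These calls depended on the test and on single libraries, and on simulated counts DESeq2 made more false calls than its threshold allows while edgeR did not. edgeR's quasi-likelihood test called none of the 8 in Van against Con, with adjusted p-values from 0.0783 to 0.509 and 5 members at an unadjusted p under 0.05, and limma on log2(FPKM + 1) called none either, with 5 at an unadjusted p under 0.05. DESeq2 called 0 members without Con replicate 1, Con replicate 3 or Van replicate 2, 2 without Van replicate 1 and 3 without VanLip replicate 3. The main fit estimates 1 spread per gene that also includes the VanLip libraries. Without VanLip replicate 1 DESeq2 called 6 members. Fitted on Con and Van alone it called 5, with adjusted p-values from 9.47e-09 for Alas2 to 0.00452 for Hba-a1.

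The next contrast compares mice given vancomycin and L654 with water-gavaged mice. All 8 members were called higher in VanLip than in Con by DESeq2, where 2.98% of the 16552 genes with an adjusted p were called higher and 3.69% lower, and again nothing is read from the count. The log2 fold change was 2.45 ± 0.554 for Hba-a1 (SE, adjusted p = 0.000579), 2.50 ± 0.548 for Hba-a2 (adjusted p = 0.000363), 2.47 ± 0.518 for Hbb-bs (adjusted p = 0.000155) and 2.58 ± 0.574 for Hbb-bt (adjusted p = 0.00045). Alas2 again had the largest difference, 2.94 ± 0.550 (adjusted p = 1.15e-05), or 7.68-fold. Car2 differed by 1.97 ± 0.530 (adjusted p = 0.00705), and Slc4a1 and Klf1 only just passed, at 2.48 ± 0.845 (adjusted p = 0.0498) and 2.74 ± 0.919 (adjusted p = 0.0454). In normalized counts the 3 VanLip libraries lay above the 3 Con libraries for 6 members, against 12.2% of all genes, and the median log2 fold change was 2.49 over members and 0.00962 over all genes.

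edgeR called 5 of these 8, namely the 4 globins and Alas2, with all 8 at an unadjusted p under 0.05. limma on log2(FPKM + 1) called none, with all 8 at an unadjusted p under 0.05, and DESeq2 called 5 without Con replicate 1, Con replicate 3, VanLip replicate 2 or VanLip replicate 3.

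The last contrast asks what L654 added to vancomycin. The methods describe vehicle injections for controls of the L654 experiments, but neither the labels nor the passage on the RNA-Seq mice names them for Con and Van. That passage refers to the timeline of the L654 experiments, which includes PBS injections, without saying whether Con and Van mice received them. If these mice were not injected, the lipid and its injection cannot be told apart in either contrast with VanLip. None of the 8 members was called in VanLip against Van by DESeq2, edgeR or limma, where DESeq2 called 4.58% of 18025 genes higher and 5.28% lower. Car2 was the one member at an unadjusted p under 0.05 by DESeq2 (log2 fold change 1.04, 95% interval 0.008 to 2.08, adjusted p = 0.233), and edgeR also had 1 such member and limma 0. The interval was -0.39 to 1.78 for Hba-a1, -0.40 to 1.75 for Hba-a2, -0.42 to 1.61 for Hbb-bs and -0.50 to 1.75 for Hbb-bt. It was -0.21 to 1.92 for Alas2, -0.59 to 2.71 for Slc4a1 and -0.63 to 2.87 for Klf1. Apart from that of Car2 all intervals held 0, and all held a log2 fold change of 1 as well. In normalized counts no member had all VanLip libraries above all Van libraries, against 13.1% of all genes. The median log2 fold change was 0.77 over members and 0.0228 over all genes. The plot of log2 fold changes sets the 3 contrasts side by side, and each pair of contrasts shares 1 group of libraries.

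**Figure D3:**
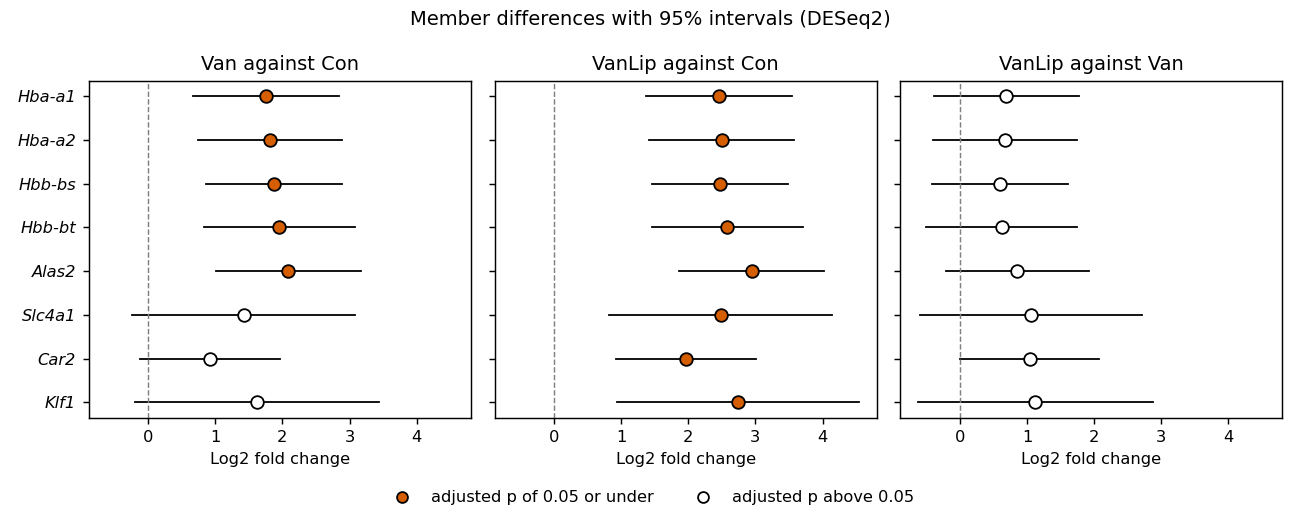
Log2 fold change (horizontal axis) of the 8 genes in the 3 contrasts, with 95% intervals from DESeq2, filled where the adjusted p was 0.05 or under. The 5 filled points of Van against Con lie between 1.76 and 2.09, all 8 points of VanLip against Con are filled and lie between 1.97 and 2.94, and none is filled in VanLip against Van.

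The estimates of VanLip against Van moved when single VanLip libraries were left out. Without VanLip replicate 1, Alas2 differed by 1.26 (adjusted p = 0.000254) and Slc4a1 by 1.56 (adjusted p = 0.00838) in DESeq2, and 2 members were called. The 4 globins then differed by 1.00 to 1.11 and were not called. Their lowest differences, 0.33 to 0.38, came without VanLip replicate 2 or 3. VanLip replicate 1 had the lowest summed platelet markers of all 9, at 14.1 FPKM, of which Clec1b gave 7.92. Its summed T and NK cell markers were also the lowest, at 9.25 FPKM, of which Cd4 gave 4.85. Its red pulp macrophage sum was the lowest as well, at 1689 FPKM against 1693 in the next library. It had the highest monocyte sum, at 13020 FPKM, of which Lyz2 gave 9154, the highest neutrophil sum, at 34.8 FPKM, of which Mmp8 gave 33.8, and the highest early progenitor sum, at 15.7 FPKM, of which Flt3 gave 13.9. The part of these in its globin level was not tested.

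Other genes of the red cell programme were examined through 6 lists with 60 genes in all, none of them a member. In Van against Con 55 of the 60 had an adjusted p, of which 6 were called higher and 2 lower, against 2.27% and 2.06% of all genes, with 17 at an unadjusted p under 0.05 and a median log2 fold change of 0.178. In VanLip against Con 53 had an adjusted p, of which 9 were called higher and 0 lower, against 2.98% and 3.69% of all genes, with 22 at an unadjusted p under 0.05 and a median of 0.346. In VanLip against Van 55 had an adjusted p, of which 4 were called higher and 2 lower, against 4.58% and 5.28% of all genes, with 15 at an unadjusted p under 0.05 and a median of 0.295. edgeR called 3, 2 and 3 of these genes in the 3 contrasts and limma on log2(FPKM + 1) called 1, 2 and 3. With DESeq2 the 8 called in Van against Con became 4 without Van replicate 2, and the 9 called in VanLip against Con became 4 without Con replicate 1, VanLip replicate 2 or VanLip replicate 3. In each contrast the median of these genes lay above that of all genes and below that of the members.

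Among 15 genes of the red cell membrane and blood groups, 2 were called higher in Van than in Con and 4 in VanLip than in Con. Epb42, which encodes the membrane skeleton protein 4.2, was at 0.0377 to 0.0590 FPKM in Con, 0.181 to 0.491 in Van and 0.150 to 0.850 in VanLip, with no overlap between Con and either other group. Its log2 fold change was 2.46 ± 0.592 in Van against Con (SE, adjusted p = 0.00241) and 3.24 ± 0.585 in VanLip against Con (adjusted p = 4.62e-06). Kel, a blood group gene, and Tmod1, a tropomodulin gene, were called higher in VanLip than in Con as well, at mean levels of 0.118 and 0.159 FPKM over the 9 libraries. Of the 2 most highly expressed genes of this list, Epb41, a membrane skeleton gene active in many cell types, differed by 0.29 ± 0.0616 in Van against Con (adjusted p = 0.000282) and by -0.22 ± 0.0609 in VanLip against Van (adjusted p = 0.00609), a pattern no member had, and Gypc was not called.

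Among 8 heme synthesis enzymes the changes were small. Cpox, coproporphyrinogen oxidase, was higher in Van than in Con by 0.47 ± 0.111 (adjusted p = 0.00159). Fech, ferrochelatase, which inserts the iron, was higher in VanLip than in Con by 0.25 ± 0.0620 (adjusted p = 0.00198) and than in Van by 0.30 ± 0.0618 (adjusted p = 6.94e-05). Both enzymes serve heme synthesis in cells of all kinds, and Cpox and Fech stood at mean levels of 5.95 and 11.5 FPKM. Urod and Alas1, the most highly expressed enzymes of the list, were not called in any contrast.

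Of 14 late red cell maturation genes, 3 were called higher in Van than in Con and 4 in VanLip than in Con. Trim10, an erythroid ubiquitin ligase gene, was at 0.0547 to 0.123 FPKM in Con, 0.174 to 0.822 in Van and 0.266 to 1.26 in VanLip, and its log2 fold change was 2.26 ± 0.646 in Van against Con (adjusted p = 0.0170) and 2.98 ± 0.639 in VanLip against Con (adjusted p = 0.00025). Xpo7, an exportin gene, was called in both contrasts with a far smaller difference, 0.21 ± 0.0582 in Van (adjusted p = 0.0150) and 0.17 ± 0.0572 in VanLip (adjusted p = 0.0461). Prdx2, a peroxiredoxin abundant in red cells, was called higher in VanLip than in Con, by 0.22. Ube2o, a ubiquitin-conjugating enzyme of reticulocytes, was higher in Van than in Con by 0.45 and lower in VanLip than in Van, with a log2 fold change of -0.30. Bpgm, which makes bisphosphoglycerate, was higher in VanLip than in Van by 0.56. Bnip3l, the mitophagy receptor, had the highest level of the list, with a mean of 53.4 FPKM, and was not called.

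The 10 erythroid transcription factors gave no gene called higher against Con. Gata1, the master factor of the lineage, was at 0.0606 to 0.206 FPKM in Con, 0.107 to 0.187 in Van and 0.0695 to 0.484 in VanLip, and its groups overlapped. Lmo2 and Bcl11a were called lower in Van than in Con, by log2 fold changes of -0.41 and -0.38. Lmo2 and Nfe2 were called higher in VanLip than in Van, by 0.47 and 0.36. Lmo2, Nfe2 and the most highly expressed gene after Nfe2, Cbfa2t3, stood at mean levels of 42.7, 52.6 and 49.6 FPKM, far above Gata1 and Klf1. None of the 7 iron and erythropoietin genes, among them Slc25a38 and Slc25a37, which had the highest levels, was called in any contrast.

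Globin genes used in the embryo or of little known use were examined as well. Hba-x, Hbb-y, Hbb-bh1 and Hbb-bh2 were listed at 0 in all 9 libraries. The theta globin genes Hbq1a and Hbq1b were at 0 to 0.103 FPKM and 0 to 0.501 FPKM, and neither was called. The plot of erythroid lists sets each list beside the members.

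**Figure D4:**
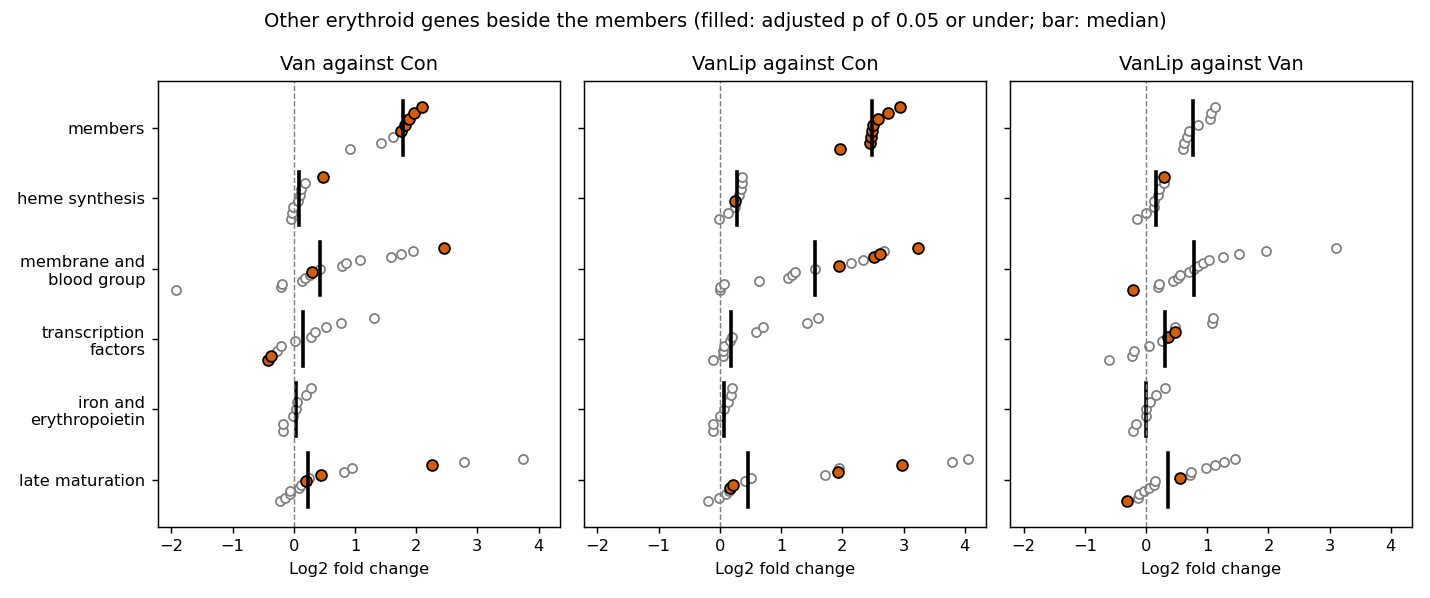
Log2 fold change (horizontal axis) of the 8 members and of 5 lists of other erythroid genes (vertical axis, 1 point for each gene with a fitted value), with the median of each list as a bar and filled points at an adjusted p of 0.05 or under. In VanLip against Con the median is 2.49 for the members, 1.55 for the 15 membrane and blood group genes and 0.46 for the 14 late maturation genes.

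The genes most like the globins were sought among 11704 non-member genes with a mean level of at least 1 FPKM, by the correlation over 9 libraries of log2(FPKM + 1) with the summed globins. The closest were Wdr18 at 0.960, Iah1 at 0.955, Nudt3 at 0.932, Crtap at 0.926 and Nr2f6 at 0.924, followed by Ado, Rpl7l1, Nup62, Gemin7 and, at 0.905, Xpo7. Wdr18 spanned only 5.33 to 7.39 FPKM over the 9 libraries. By deviations from the group means the closest were Pias1 at 0.974, Clec2i at 0.971 and Gm4617 at 0.965, followed by Dock11, Rbms2, Asf1b, Ncaph, Nptxr, Psmd5 and, at 0.933, the heme enzyme gene Alad. With 9 points in 3 groups and 11704 genes such values are a description.

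When genes down to a mean of 0.2 FPKM were admitted with a pseudocount of 0.1, a setting chosen after the data were seen, Epb42 was the closest after Wdr18, at 0.959, and Trim10 stood at 0.941. Of the 43 listed erythroid genes that reached this level 8 had a correlation of 0.8 or more, or 18.6%, against 1.16% of 15226 genes. Among them were Epb42, Trim10, Xpo7, Abcb10, Cpox and Alad. Their values are a description over the same 9 libraries.

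Of the markers of other cells in the spleen, Vcam1 was the one gene called higher in any of the 3 contrasts. The 11 red pulp macrophage markers summed to 1693 to 2047 FPKM in Con, 1987 to 2639 in Van and 1689 to 2161 in VanLip. All 11 had a positive log2 fold change in Van against Con, with a median of 0.239. In VanLip against Con 6 were positive, with a median of 0.032. In VanLip against Van 1 was positive, with a median of -0.207. Vcam1, an adhesion molecule of these macrophages, had a log2 fold change of 0.46 in Van against Con (adjusted p = 0.0106) and of -0.50 in VanLip against Van (adjusted p = 0.00176). The 10 platelet and megakaryocyte markers summed to 21.7 to 38.7 FPKM in Con, 20.1 to 25.6 in Van and 14.1 to 26.4 in VanLip, and none was called. The 8 B cell markers summed to 336 to 395 FPKM in Con, 252 to 277 in Van and 258 to 321 in VanLip, with Ighm called lower in both groups than in Con and Blk lower in Van than in Con. Ighm made up most of each B cell sum, at 241 to 381 FPKM.

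The 10 T and NK cell markers summed to 15.5 to 20.0 FPKM in Con, 10.5 to 15.8 in Van and 9.25 to 18.2 in VanLip, and none was called. The 8 neutrophil markers summed to 14.9 to 23.4 FPKM in Con, 12.2 to 31.8 in Van and 16.9 to 34.8 in VanLip, with the defining marker Ly6g listed at 0 in all libraries, Retnlg called lower in Van than in Con and Ngp lower in VanLip than in Con. Mmp8 made up most of each sum, at 33.8 FPKM in VanLip replicate 1. The median log2 fold change of the 7 markers above 0 was -0.724 in Van against Con, with 2 positive. It was -0.802 in VanLip against Con, with 1 positive. The 6 early progenitor markers summed to 10.4 to 10.8 FPKM in Con, 10.9 to 12.0 in Van and 10.3 to 15.7 in VanLip. Flt3 made up most of each sum, and the median log2 fold change of the list was -0.569 in Van against Con and -0.395 in VanLip against Con, with 2 of 6 positive in each. Of the monocyte markers Ccr2 was lower in Van than in Con by a log2 fold change of -0.83 and higher in VanLip than in Van by 1.04, Ly6c2 and Cx3cr1 were higher in VanLip than in Van by 0.39 and 0.43, and none was called in VanLip against Con. The part of any of these lists in the globin differences was not tested. The plot of marker sums sets them beside the members.

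**Figure D5:**
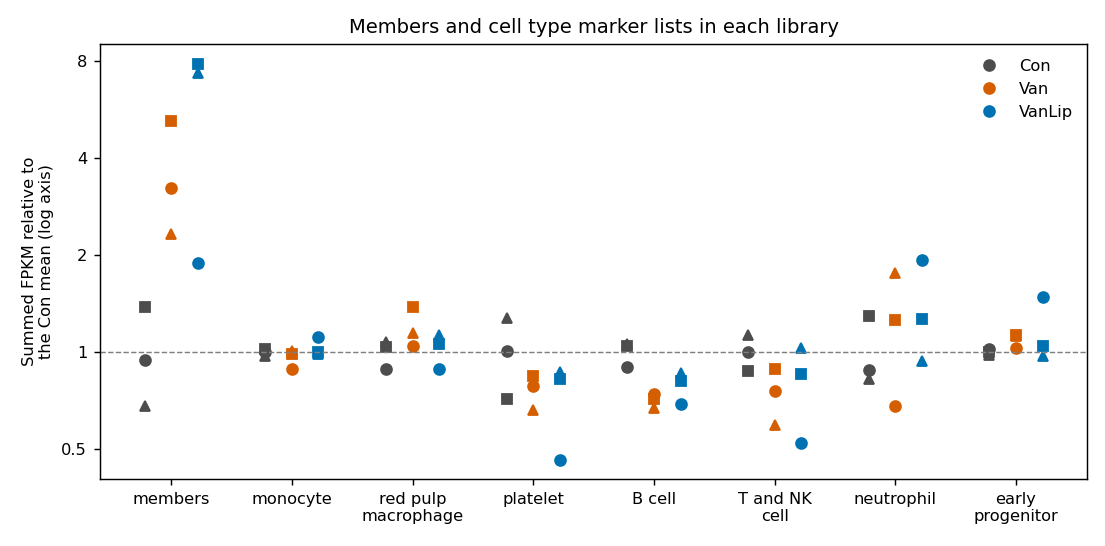
Summed FPKM of the 8 members and of 7 cell type marker lists in each library, divided by the mean of the 3 Con libraries (vertical axis, log), coloured by group, with shapes for replicate numbers 1 (circle), 2 (square) and 3 (triangle). The members' sum, 101 to 206 FPKM in Con, reaches 346 to 777 in Van and 282 to 1171 in VanLip, whereas the monocyte sum, most of it Lyz2, lies between 10370 and 13020 FPKM in the 9 libraries.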

How the data were processed

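RNA-Seq libraries of splenic monocytes were made with the TruSeq Stranded mRNA kit. Per the labels, alignment to GRCm38 used HISAT2 2.2.1 and SAMtools 1.9, and the authors computed FPKM with StringTie 2.1.3 and Ballgown. A second deposited table holds expected counts, which the authors derived with tximport and did not normalize. The annotation release was not given in the sources used here.

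Expected counts were rounded and tested with DESeq2 1.42.0 (Wald test, median-of-ratios, 9 libraries in 1 fit, group as the only term, 25441 genes, Benjamini-Hochberg adjustment, two-sided) in R 4.3.3. The methods give the Wald test and this adjustment with DESeq2 1.38.3, and the single fit, its term and the genes kept were chosen here. The threshold for a call was an adjusted p of at most 0.05. Alternatives used edgeR 4.0.16 and limma 3.58.1 on log2(FPKM + 1) or log2(FPKM + 0.1), other scalings and filters, and fits without each library. The scripts were tested on simulated data, where DESeq2 made more false calls than its threshold allows and edgeR did not. In the main fit 1 spread per gene was estimated over the 3 groups of 3 mice each. The p-values of Van against Con therefore also carry the spread between VanLip mice. Intervals cover this spread and counting error only. The members and lists were chosen with earlier results of these data known. All 8 members, the 2 highest genes of each further list, called genes and the 10 most like genes were named, apart from a few items that are not reported here. Epb41 and Epb42 were matched by identifier. Promoters and transcripts came from RefSeq and GENCODE M21.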

Additional observations from a re-analysis of the deposited data

How the results depend on the processing

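No member changed direction: all 170 refitted values in each of the 3 contrasts kept the sign of the reported one. Calls were less stable. The 5 members called in Van against Con became 0 with edgeR's quasi-likelihood test, with limma on log2(FPKM + 1), with limma on log2(FPKM + 0.1) and with limma on genes of a mean FPKM of at least 1 (6 members fitted), and 0 to 6 when 1 library was left out. The 8 called in VanLip against Con became 5 with edgeR, 0, 0 and 1 in the 3 limma fits, and 5 to 8 when 1 library was left out. The 0 called in VanLip against Van became 1 with a replicate block and 0 to 2 when 1 library was left out.

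Of the other erythroid genes, the 8 called in Van against Con became 3 with edgeR, 1, 0 and 0 in the limma fits, and 4 to 9 when 1 library was left out, 4 without Van replicate 2. The 9 called in VanLip against Con became 2 with edgeR, 2, 0 and 0 in the limma fits, and 4 to 10 when 1 library was left out, 4 without Con replicate 1, VanLip replicate 2 or VanLip replicate 3. The 6 called in VanLip against Van became 3 with edgeR, 3 with limma on log2(FPKM + 1) and 2 with limma on log2(FPKM + 0.1), and 4 to 9 when 1 library was left out, 9 without VanLip replicate 1. Over all genes DESeq2 called 803, 1104 and 1777 in the 3 contrasts, edgeR 204, 300 and 855, and limma on log2(FPKM + 1) 92, 237 and 688. On simulated counts DESeq2 made more false calls than its threshold allows and edgeR did not, and how much of the difference in calls this makes up was not tested.

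Same-numbered replicates of different groups had deviations that correlated between -0.065 and 0.123 over genes, so the numbers were taken as names and not as pairs. The replicate block called 6, 7 and 1 members. Fold changes of the summed alpha and beta globins were the same within the spread between mice when normalized counts took the place of FPKM, and summing all rows of a symbol changed nothing, since each had 1. The depth limits Klf1 most, with expected counts of 0 to 24.5 in Con.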
